A study of Mus musculus with 80 samples.

Results

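The proteasome is the protease complex that degrades ubiquitin-tagged proteins in the cytosol and nucleus. Its core particle is a barrel of outer alpha rings, which gate the entry, and inner beta rings, which hold the proteolytic sites. The regulatory cap docks on the alpha ring: its base, with a ring of ATPases, unfolds and threads the substrate, and its lid removes the ubiquitin chain. In cells exposed to interferon the catalytic beta subunits encoded by Psmb5, Psmb6 and Psmb7 are replaced in new complexes by those of Psmb8, Psmb9 and Psmb10, which gives the immunoproteasome, a form that makes peptides suited to class I antigen presentation. Psme1 and Psme2 encode an alternative cap that interferon also induces. The genes followed here are all rows of the deposited liver expression table whose symbol starts with Psm, then a, b, c, d or e, then a number. They are 44 of 14560 genes.

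By textbook role these 44 rows are 8 alpha ring genes, 7 constitutive beta ring genes, 3 immunoproteasome beta genes, 6 ATPases of the base, 11 non-ATPase subunits of base and lid, 3 chaperones that assemble the base (Psmd5, Psmd9 and Psmd10) and 4 activator genes (Psme1 to Psme4). The other 2, Psmc3ip and Psme3ip1, match by spelling only: they encode proteins named for binding a subunit. Psma8, the alpha subunit of the testis, was near the lower end of detection, at group means of 12.1 to 29.3 normalized counts. The core particle without Psma8 (14 genes) and the cap subunits (17 genes) make up the 31 core and cap genes whose counts are given below. All 44 rows are protein coding and passed the filter on low values. In the GENCODE M21 annotation of GRCm38, 23 of them overlap another annotated gene, 8 on the same strand.

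Livers came from female C57BL/6J mice of 8 weeks, either Adamts12-/- (called knockout) or wild type. Adamts12 encodes a secreted metalloprotease. Each mouse received a single intraperitoneal dose of carbon tetrachloride (CCl4), 0.3 ml per kg of body weight as a 3% solution in olive oil, or the olive oil vehicle alone, and the liver was taken after 4 h, 12 h, 24 h or 7 days. CCl4 is a hepatotoxin that cytochrome P450 enzymes, above all Cyp2e1, activate in hepatocytes. The 16 groups, knockout CCl4, knockout vehicle, wild-type CCl4 and wild-type vehicle at each time, held 5 mice each, 1 library per mouse, of total RNA from whole liver. No untreated mice were analysed here, so every change is relative to oil-injected mice killed at the same time. Values are read counts divided by a size factor per library (normalized counts), and changes are log2 differences of CCl4 over vehicle with their SE.

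Libraries held 18.6 to 64.5 M reads (M, mega), with a median of 32.74 M, as read from the smallest step of each library's values. A count of 3 reads, the limit that a count of 0 allows, corresponds to 1.16 to 6.02 normalized counts. Adamts12 was lower in knockout than in wild-type livers in 8 of 8 conditions, at 8.2 ± 5.5 normalized counts (SD, n = 38) against 23.6 ± 16.6 (SD, n = 40), a log2 difference of -1.37 ± 0.16 (adjusted p = 9.52e-09). Which exons the null allele lacks is not given in the labels. Knockout CCl4 replicate 5 and knockout vehicle replicate 1 of 12 h stood with the other treatment and are left out of every result. The mean correlation with the own group was 0.9181 for the CCl4 library, against 0.9746 with the vehicle group, and 0.9068 for the vehicle library, against 0.9782 with the CCl4 group. The 31 core and cap genes were mixed: in the CCl4 library 10 lay only in the range of the vehicle group, 6 only in that of its own group, 8 in both and 7 in neither, and in the vehicle library 15 lay only in the range of the CCl4 group, 4 only in that of its own group, 7 in both and 5 in neither. Psmd14 was at 1439 in the CCl4 library, where its group had 2151 to 3075, and at 2395 in the vehicle library, where its group had 1494 to 1973. Leaving 4 against 4 libraries, this makes the knockout comparison of 12 h the least precise of the 8.

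The promoters of 4 genes are shown here as examples of the roles described below: Psmb5 and Psmb6 encode catalytic subunits of the constitutive core, Psmd14 had the largest 4 h rise of the core and cap genes, and the immunoproteasome gene Psmb10 fell. Each is up to 120 bases before the RefSeq start (GRCm38.p6), without bases that GENCODE M21 places in an exon. Capitals mark a match to TGACNNNGC, the core of the antioxidant response element, which the stress factors Nfe2l1 and Nfe2l2 bind. The windows are chr14:54618023-54618115 on the minus strand, chr11:70525237-70525356 on the plus strand, chr2:61711574-61711693 on the plus strand and chr8:105938445-105938512 on the minus strand.
Psmb5: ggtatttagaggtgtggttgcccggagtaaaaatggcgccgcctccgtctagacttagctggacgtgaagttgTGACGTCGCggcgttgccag
Psmb6: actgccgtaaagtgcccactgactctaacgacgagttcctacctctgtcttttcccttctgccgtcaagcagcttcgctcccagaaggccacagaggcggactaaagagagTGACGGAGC
Psmd14: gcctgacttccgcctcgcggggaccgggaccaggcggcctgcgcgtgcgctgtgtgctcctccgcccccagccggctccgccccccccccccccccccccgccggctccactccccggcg
Psmb10: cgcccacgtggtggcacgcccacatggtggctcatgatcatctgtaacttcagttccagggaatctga

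RefSeq promoters, from 250 bases before to 50 after the start, were matched for 37 of the 44 rows, 41 promoters in all, and 5 motifs were searched on both strands. Among 27 promoters of core and cap genes, TGACNNNGC was present in 4, those of Psmb5, Psmb6, Psmc6 and Psmd12, which is 14.8%, against 12.4% of all 32851 promoters. CCAAT was present in 10 (37.0%, against 37.4% of all), and the core of the heat shock element in 0 (against 0.603% of all). Of the interferon motifs, the core of the interferon-stimulated response element was present in 2 (7.41%, against 3.44%) and TTCNNNGAA, the core of the gamma-activated site, in 1 (3.7%, against 8.3%). The antioxidant and CCAAT shares were near those of all promoters, and the other counts are too small to set beside a share. In the windows above, Psmb5 and Psmb6 each hold an antioxidant match close to the start. Psmd14 and Psmb10 hold none of the 5 motifs there, but the longer Psmd14 promoter has 3 CCAAT matches outside the printed window.

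At 4 h after CCl4 most core and cap genes were higher in both genotypes, with more calls in wild type. In knockout livers 22 of 31 core and cap genes were called higher (adjusted p under 0.05 over all genes) and 0 lower, with a median log2 change of 0.53. In wild-type livers 31 of 31 were called higher, with a median of 0.74 and a range of 0.41 to 1.37. Over all tested genes 21.1% were called higher in the knockout and 23.1% in wild type, and the median change was 0.00 and -0.03. Quantile normalization lowered the median of the core and cap genes to 0.36 in the knockout and 0.50 in wild type, and the higher calls among all called genes to 44.3% in the knockout and 44.6% in wild type, against 54.5% and 53.0% as deposited. Summed over the 31 genes, normalized counts in the knockout were 120301 to 127424 (median 123852) with CCl4 and 71924 to 92465 (median 89056) with vehicle. Wild-type sums were 125265 to 146026 (median 133809) with CCl4 and 65155 to 82604 (median 80819.5) with vehicle. The groups did not overlap in either genotype. In bulk liver, fewer cells of a type and less message per cell cannot be told apart.

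**Figure D1:**
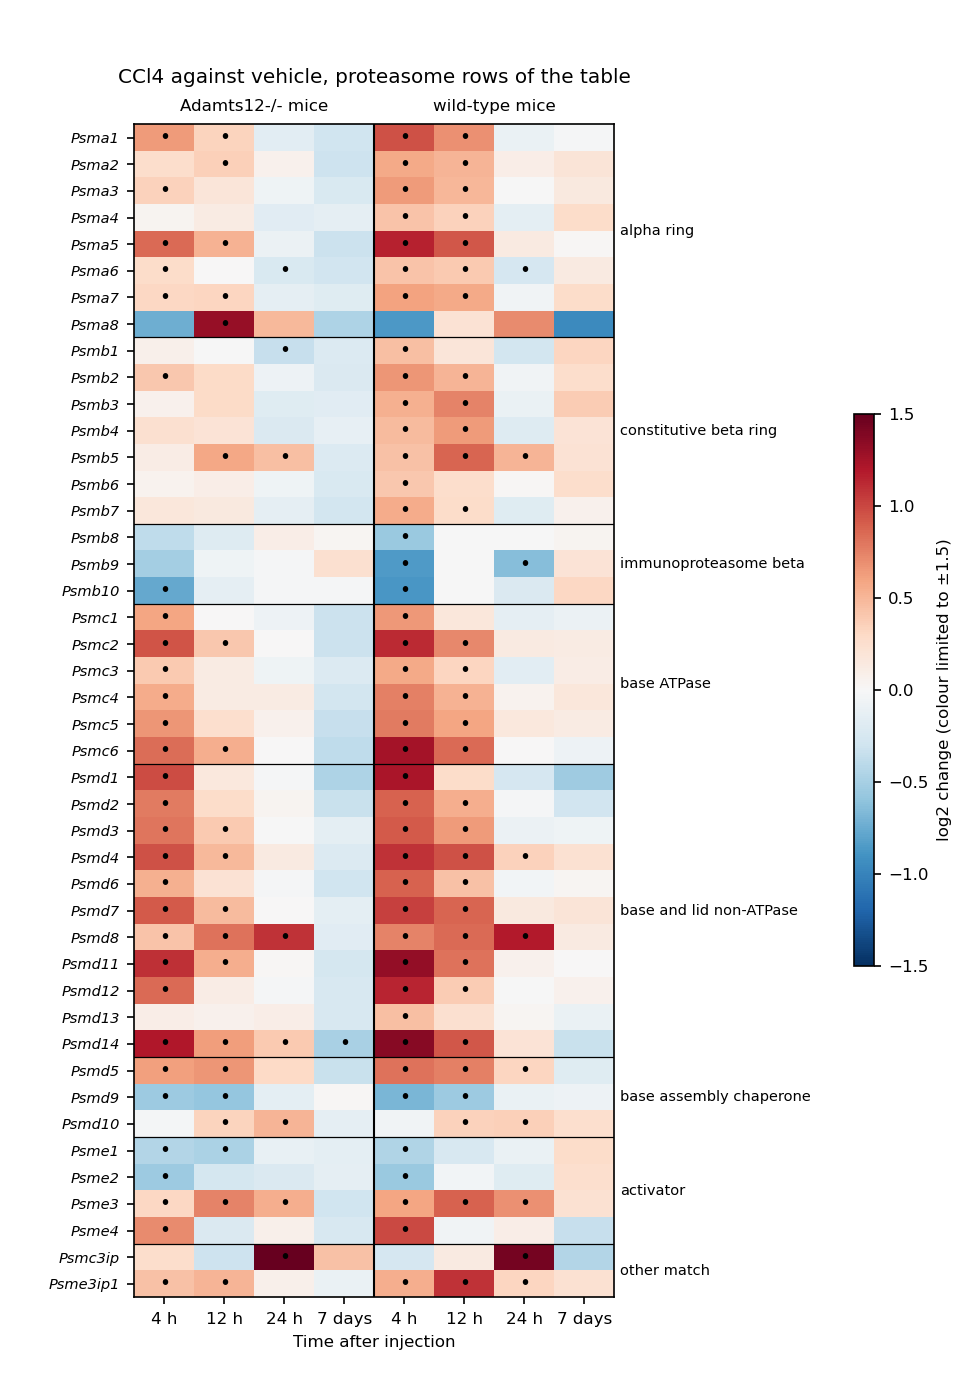
Log2 change of CCl4 over vehicle for the 44 rows (down the page, grouped by role) at each time after injection, knockout mice left and wild-type mice right; colour is limited to ±1.5 and a dot marks an adjusted p under 0.05. At 4 h all 17 cap genes of wild type carry a dot, while the 3 immunoproteasome beta genes are below 0.

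The cap subunits had the larger median change. Among the 17 cap subunits 16 were called higher at 4 h in the knockout, with a median log2 change of 0.80, and 17 in wild type, with a median of 0.92, while the 14 core particle genes had medians of 0.25 and 0.55. Psmd14, the deubiquitinase of the lid that cuts the chain from the substrate (chr2:61711694-61800376), had 2819, 2909, 2870.1, 2256 and 2518 normalized counts in knockout CCl4 livers and 1273, 1124, 966, 1375 and 1097 in knockout vehicle livers (1.20 ± 0.12, adjusted p = 3.76e-13). Wild-type livers had 2815, 3076, 2875, 2902 and 2591 with CCl4 and 1203, 1370.9, 1122, 983 and 901 with vehicle (1.37 ± 0.12, adjusted p = 2.25e-15). Every CCl4 library was above every vehicle library in both genotypes, by more than the whole range within a group. Psmc2, an ATPase of the base, had 5667, 5579, 5653, 5018 and 5127 in knockout CCl4 livers and 3102, 2600.4, 2384, 2986 and 3099.5 in knockout vehicle livers (0.94 ± 0.10, adjusted p = 8.03e-12). In wild type it had 5413, 5933, 5913, 5805 and 5739 with CCl4 and 3274, 2678, 2694, 2614 and 2086 with vehicle (1.12 ± 0.10, adjusted p = 8.96e-15). These groups did not overlap either. Of the genes outside the naming rule and picked for the size of their change, the lid scaffold gene Psmd11 changed by 1.09 in the knockout and 1.32 in wild type, the ATPase gene Psmc6 by 0.84 and 1.25, and the large base scaffold gene Psmd1 by 0.98 and 1.22, all called. The cap gene that was not called in the knockout was Psmd13, a lid subunit (0.10 ± 0.11, adjusted p = 0.53).

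In the core particle most calls of the knockout were in the alpha ring. Without Psma8, 5 of 7 alpha genes were called higher at 4 h in the knockout (Psma1, Psma3, Psma5, Psma6 and Psma7) and 7 of 7 in wild type. In the knockout Psma2 changed by 0.26 and Psma4 by 0.04. Psma5 had 3133, 2845, 2839, 3091 and 2599 in knockout CCl4 livers and 1656, 1563, 1325, 1605 and 1932 in knockout vehicle livers (0.85 ± 0.14, adjusted p = 4.49e-07). Wild-type livers had 3441, 3022, 3104, 2856 and 3135 with CCl4 and 1664, 1589, 1292, 1203 and 1316 with vehicle (1.15 ± 0.14, adjusted p = 1.09e-10). No library of one treatment reached the other. Of the 7 constitutive beta genes only Psmb2, a non-catalytic subunit, was called higher in the knockout, at 2859, 3245, 3012, 2777 and 2704 with CCl4 and 2641, 1777, 1786, 2365 and 2556 with vehicle (0.41 ± 0.12, adjusted p = 0.00464). All 7 were called in wild type, where Psmb2 had 2442, 3123, 2865, 3167 and 2894 with CCl4 and 2071, 1843, 2117, 1841 and 1352 with vehicle (0.66 ± 0.12, adjusted p = 5.5e-06). The groups did not overlap in either genotype, but the margin was narrow in the knockout, whose call was lost after quantile normalization (0.24, adjusted p = 0.111). The 3 catalytic genes of the beta ring changed less.

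Psmb5, which carries the chymotrypsin-like site, had 1564, 1046, 1079, 1580.4 and 1289.9 in knockout CCl4 livers and 1309, 1348, 812, 1259 and 1382 in knockout vehicle livers (0.11 ± 0.16, adjusted p = 0.65). In wild type there were 1541, 1358, 1634, 1201 and 1618 with CCl4 and 1211, 1217, 1133, 909 and 959 with vehicle (0.44 ± 0.16, adjusted p = 0.0227). The CCl4 libraries of the knockout lay within or above the vehicle range. Psmb6, which carries the caspase-like site, had 3938, 4189, 3594, 4012 and 4196 in knockout CCl4 livers and 4931, 3303, 3287, 3872 and 4081 in knockout vehicle livers (0.05 ± 0.14, adjusted p = 0.832). In wild type there were 5059.8, 4075, 4218, 4761 and 4028 with CCl4 and 3106, 3351, 3697, 4136 and 2513 with vehicle (0.41 ± 0.14, adjusted p = 0.0158). Its groups overlapped in both genotypes. Psmb7, which carries the trypsin-like site, had 4602, 4063, 4111, 4391 and 4259.9 in knockout CCl4 livers and 4145, 3616, 3195, 3861 and 4271 in knockout vehicle livers (0.17 ± 0.12, adjusted p = 0.249). In wild type there were 7039, 4454, 4883, 4619 and 4125 with CCl4 and 2766, 3638, 3499, 4206 and 2799 with vehicle (0.56 ± 0.12, adjusted p = 5.1e-05). Its groups overlapped too, and the CCl4 libraries of wild type included 1 far above the rest. The wild-type call of Psmb5 was lost without CCl4 replicate 3 or 5 or vehicle replicate 4 or 5 (adjusted p of 0.0533 to 0.0721), and that of Psmb6 without CCl4 replicate 1 or vehicle replicate 5 (0.0501 and 0.0899). Quantile normalization also ended both, at 0.21 for each gene (adjusted p of 0.309 and 0.194).

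**Figure D2:**
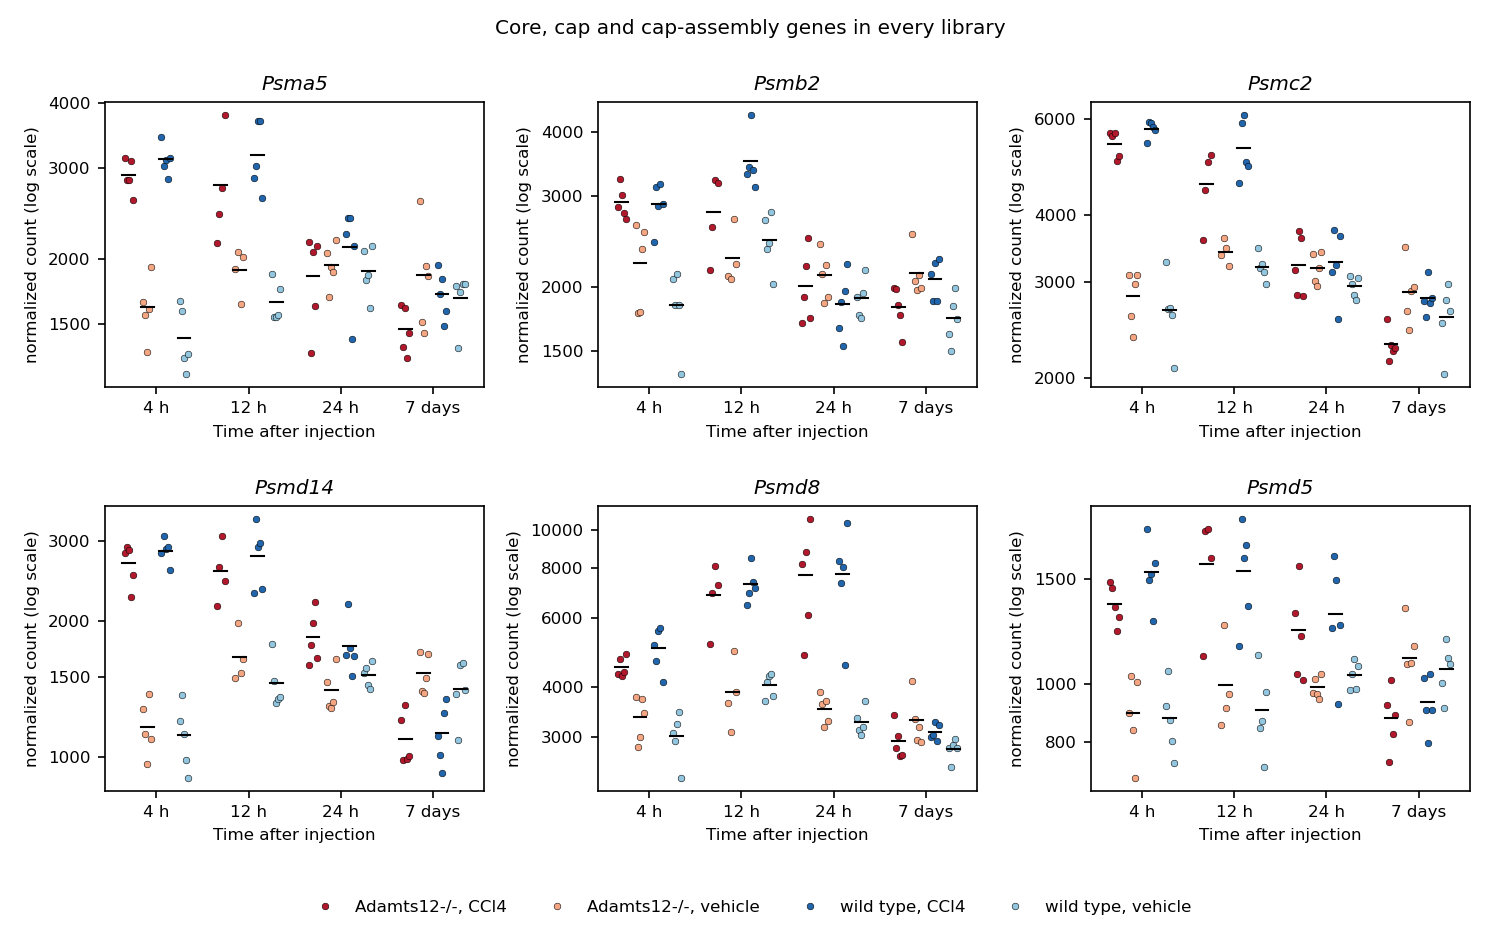
Normalized counts (log axes) of 6 core, cap and cap-assembly genes in every library at each time, with knockout CCl4, knockout vehicle, wild-type CCl4 and wild-type vehicle from left to right; points are mice and bars are group means. CCl4 and vehicle points separate at 4 h and overlap at 24 h for every gene shown but Psmd8.

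At 12 h and 24 h fewer core and cap genes were called higher than at 4 h. In the knockout 13 of 31 core and cap genes were called higher at 12 h, with a median log2 change of 0.28, and in wild type 26 of 31, with a median of 0.54, and 0 lower in either. Among all genes 23.6% were called higher and 23.1% lower in the knockout, and 29.0% and 29.4% in wild type. At 24 h 3 were called higher in each genotype (Psmb5, Psmd8 and Psmd14 in the knockout, Psmb5, Psmd4 and Psmd8 in wild type), 2 lower in the knockout (Psma6 and Psmb1) and 1 lower in wild type (Psma6), with medians of -0.02 in the knockout and -0.01 in wild type that became 0.17 and 0.13 after quantile normalization. That setting gave 15 of the 44 rows higher and 0 lower in the knockout at 24 h, against 6 and 2 as deposited. All 3 of these lower calls were lost with quantile normalization and without single libraries of their groups. The background at 24 h was 21.1% higher and 23.0% lower in the knockout and 26.2% higher and 25% lower in wild type. Sums over the 31 genes at 12 h were 102357 to 133355 (median 121479.5) in knockout CCl4 livers and 95422 to 98665 (median 97817) in knockout vehicle livers, 118552 to 153484 (median 142008) in wild-type CCl4 livers and 88899 to 97800.4 (median 90123) in wild-type vehicle livers, with no overlap. With the 2 libraries left out at 12 h added back under their labels, 4 of the 44 rows were called higher in the knockout and 0 lower, against 18 and 2 without them. Knockout CCl4 replicate 1 had the lowest value of its group in 27 of the 31 genes. At 24 h the CCl4 and vehicle sums overlapped in both genotypes, with medians of 94548 and 92700.3 in the knockout and 96118 and 89709 in wild type. Of the 5 wild-type vehicle mice of 24 h, 4 are numbered below 7000 in the labels and none of the CCl4 mice of that time is. Leaving out the 12 such wild-type mice leaves only vehicle replicate 5 at 24 h, so that setting cannot check the calls of that time. Without wild-type CCl4 replicate 5 of 24 h, 5 of the 44 rows were called higher and 0 lower, against 8 and 2 with it.

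The steps between times were tested as changes of the CCl4 effect. Among the core and cap genes, 8 effects were lower at 12 h than at 4 h in the knockout and 7 in wild type, and 0 were higher, where 12.1% of all genes had a lower and 9.99% a higher effect in the knockout, and 16.4% and 14.2% in wild type. Psmd12 and Psmd1, both cap subunits, had the largest of these falls, -0.74 and -0.82 in the knockout and -0.76 and -0.94 in wild type. From 12 h to 24 h, 21 of the 31 effects fell in wild type, for example those of Psmc6 (-0.85), Psma5 (-0.80) and Psma1 (-0.78), against 7.91% of all genes that fell and 4.72% that rose. In the knockout 1 fell, that of Psmd11 (-0.53), against 3.83% of all genes that fell and 1.24% that rose. Over all 44 rows 22 effects fell or rose in wild type. Leaving out the wild-type mice numbered below 7000 leaves only vehicle replicate 5 at 24 h, so that setting cannot check this count. The knockout count over all 44 was 2 as reported and 10 without knockout CCl4 replicate 1 of 12 h, 5 without CCl4 replicate 3 and 4 without CCl4 replicate 5 of 24 h, so the number of knockout effects that changed between 12 h and 24 h is poorly determined. From 24 h to 7 days the effect of Psmd8, Psmd14, Psmd5 and Psme3 fell in both genotypes, by 1.24, 0.87, 0.62 and 0.84 in the knockout and by 1.05, 0.53, 0.50 and 0.45 in wild type, while 13.9% and 19.2% of all genes fell. In the same step Psma4 (0.44), Psma6 (0.38) and Psmb1 (0.60) were called with a rising effect in wild type, and 0 core and cap genes in the knockout, where 16.1% of all genes rose, against 19.1% in wild type. Wild type had 10 calls in this step over all 44 rows. Leaving out the mice numbered below 7000 leaves only replicate 5 of its 24 h vehicle and 7 day CCl4 groups. That setting therefore cannot check these calls. In a joint test of the 8 comparisons of CCl4 with vehicle, 43 of 44 rows differed in some comparison, against 81.7% of all genes, and the exception was Psmb8 (adjusted p = 0.266).

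Psmb5 and Psmd8 were the core and cap genes called higher at 24 h in both genotypes. No change of their CCl4 effect from 4 h to 12 h or from 12 h to 24 h was called in either genotype. In wild type the step from 4 h to 12 h was 0.43 ± 0.23 for Psmb5 (adjusted p = 0.149 with limma). For Psmd8 it was 0.11 ± 0.20 (adjusted p = 0.726 with limma). Psmd8, a lid subunit chosen here after its values were seen, had 8175, 4828, 8799, 6086 and 10645 in knockout CCl4 livers of 24 h and 3884, 3618, 3179, 3686 and 3288 in knockout vehicle livers (1.08 ± 0.14, adjusted p = 6.01e-09). In wild type it had 8352, 7322, 8066.9, 4547 and 10408 with CCl4 and 3349.7, 3119, 3034, 3175 and 3697 with vehicle (1.19 ± 0.14, adjusted p = 2.02e-10). The groups did not overlap, although the CCl4 groups ranged widely. At 4 h the change was 0.43 in the knockout, lost after quantile normalization (0.31, adjusted p = 0.116), and 0.74 in wild type, and the difference between 4 h and 24 h was not tested. Psmb5 had 1879, 2101, 2048 and 2866 in knockout CCl4 livers of 12 h and 1423, 1372.5, 1481 and 1605 in knockout vehicle livers (0.58 ± 0.18, adjusted p = 0.00629, lost without CCl4 replicate 4 at an adjusted p of 0.0523). Wild-type livers of 12 h had 2214, 2485, 3137, 3205 and 1891 with CCl4 and 1477, 1231, 1436, 1354 and 1470.1 with vehicle (0.87 ± 0.16, adjusted p = 5.74e-06). At 24 h Psmb5 was still called higher, by 0.45 ± 0.16, adjusted p = 0.0197 in the knockout and 0.51 ± 0.16, adjusted p = 0.0063 in wild type. The knockout call of 24 h was lost without CCl4 replicate 1 or vehicle replicate 2 (adjusted p of 0.0647 and 0.0681). Without the mice numbered below 7000, which leaves only vehicle replicate 5, the wild-type change of Psmb5 at 24 h was 0.29. Psmb6 and Psmb7 were not called at 24 h in either genotype.

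Of the base chaperones, Psmd5 rose and Psmd9 fell. At 4 h Psmd5 had 1483, 1446, 1345, 1228 and 1297 in knockout CCl4 livers and 896, 1031, 839, 698 and 1009.5 in knockout vehicle livers (0.61 ± 0.13, adjusted p = 0.000163). In wild type it had 1817, 1493, 1528, 1278 and 1596 with CCl4 and 919, 1053, 873, 803 and 739.6 with vehicle (0.81 ± 0.13, adjusted p = 7.94e-07), with no overlap in either genotype. Psmd9 had 884, 1003, 910.4, 1104 and 1087 in knockout CCl4 livers and 1305, 1259, 1529, 1687 and 1559.7 in knockout vehicle livers (-0.55 ± 0.16, adjusted p = 0.00389). Wild-type livers had 804, 743, 1158, 854 and 1113 with CCl4 and 1546, 1412, 1350.3, 1666 and 1441 with vehicle (-0.68 ± 0.16, adjusted p = 0.000296), again with no overlap. The Psmd9 locus (chr5:123169413-123250131, plus strand) overlaps Hpd, an abundant tyrosine catabolism gene on the opposite strand, and whether counting used the strand of the stranded libraries is not given in the sources used here. Hpd averaged 52212 ± 9811 in knockout CCl4 livers and 100121 ± 17433 in knockout vehicle livers at 4 h, and 44216 ± 8098 in wild-type CCl4 livers and 96746 ± 22030 in wild-type vehicle livers (SD, n = 5 each). Reads of the pair cannot be told apart if strand was ignored. Psmd9 was also called lower at 12 h in both genotypes. The knockout had 834.7 to 977.8 with CCl4 and 947.4 to 1717.4 with vehicle at 12 h. That knockout call was lost with all 80 libraries (-0.28, adjusted p = 0.255 with limma). Hpd changed at 12 h by -1.82 in the knockout and -2.0 in wild type. At 24 h Hpd changed by -2.27 in the knockout and -2.33 in wild type. Psmd9 changed by -0.15 ± 0.16, adjusted p = 0.465 in the knockout and -0.10 ± 0.16, adjusted p = 0.636 in wild type at that time. The part of Hpd in the Psmd9 counts was not tested. Psmd10, another base chaperone gene, changed by 0.51 ± 0.12, adjusted p = 0.000674 in the knockout at 24 h. It was also called higher at 12 h in both genotypes and at 24 h in wild type (0.33, 0.34 and 0.36), calls that were each lost with quantile normalization (adjusted p of 0.188, 0.0513 and 0.0686).

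None of the 3 immunoproteasome genes was called higher at any time, and at 4 h Psmb10 was called lower in the knockout and all 3 in wild type. Psmb10 (chr8:105935735-105938444), the inducible counterpart of Psmb7, had 1004, 733, 909, 913 and 764 in knockout CCl4 livers and 1414, 1665, 1129, 1301 and 1929 in knockout vehicle livers (-0.77 ± 0.18, adjusted p = 0.000568). In wild type it had 798, 705, 588, 597 and 795 with CCl4 and 1104, 1332, 1338, 1179 and 1369 with vehicle (-0.87 ± 0.18, adjusted p = 8.38e-05). All CCl4 libraries lay below all vehicle libraries in both genotypes. Psmb9, the counterpart of Psmb6, had 503, 346, 396, 392 and 316 in knockout CCl4 livers and 431, 652, 382, 557 and 834 in knockout vehicle livers, groups that overlapped (-0.51 ± 0.26, adjusted p = 0.122). In wild type it had 309.5, 255, 228, 188 and 314 with CCl4 and 434, 474, 496, 358 and 566 with vehicle, groups that did not (-0.85 ± 0.26, adjusted p = 0.00612). Psmb8, the counterpart of Psmb5, had 975, 822, 1030.2, 723 and 702 with CCl4 and 830.1, 1258, 719, 1137 and 1804 with vehicle in knockout livers (-0.38 ± 0.22, adjusted p = 0.17). It had 611, 591, 555, 485 and 813 with CCl4 and 1054, 892, 912, 665 and 968 with vehicle in wild-type livers (-0.56 ± 0.22, adjusted p = 0.0295). Its wild-type groups overlapped in 1 CCl4 library, and the call was lost without CCl4 replicate 3 or 4 or vehicle replicate 1 or 5 (adjusted p of 0.0579 to 0.0888). Lower calls at 4 h were thus 1 of 3 in the knockout and 3 of 3 in wild type, against 17.7% and 20.5% of all genes. The difference between the genotypes was not called for any of the 3 genes.

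At 12 h none of the 3 was called in either genotype, with changes of -0.19 to -0.06 in the knockout and -0.01 for each in wild type. At 24 h 1 call was made, Psmb9 in wild type (-0.64 ± 0.26, adjusted p = 0.0379), which was lost without CCl4 replicate 3 or 5 or vehicle replicate 1 or 3 (adjusted p of 0.0754 to 0.187). Without the wild-type mice numbered below 7000, which leaves only vehicle replicate 5 at 24 h, its change was -0.31. At 7 days no call was made. Psmb9 (chr17:34181987-34187764, minus strand) overlaps the peptide transporter gene Tap1 on the opposite strand. Tap1 changed by 0.13 in the knockout and -0.41 (adjusted p = 0.11) in wild type at 4 h. At 12 h it rose by 0.87 in the knockout and 1.03 in wild type. Its part in the Psmb9 counts was not tested. Markers of immune cells, which express these genes more than hepatocytes do, were measured in the same libraries. Of 8 pan-leukocyte markers 0 were called at 4 h in either genotype, with sums of 6198 to 8391 (median 6885) in knockout CCl4 livers, 5779.7 to 7238 (median 6635) in knockout vehicle livers, 4752 to 7826 (median 6096) in wild-type CCl4 livers and 4423 to 6183 (median 5231) in wild-type vehicle livers. Of 10 T, B and NK cell markers 0 were called at 4 h, with summed counts of 147 to 278 (median 195), 228 to 335 (median 301), 124 to 258 (median 173) and 155 to 318 (median 211) in the same order of groups. No marker of either list was at 0 in all libraries of a group, and the part of these cells in the Psmb8, Psmb9 and Psmb10 values was not tested.

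**Figure D3:**
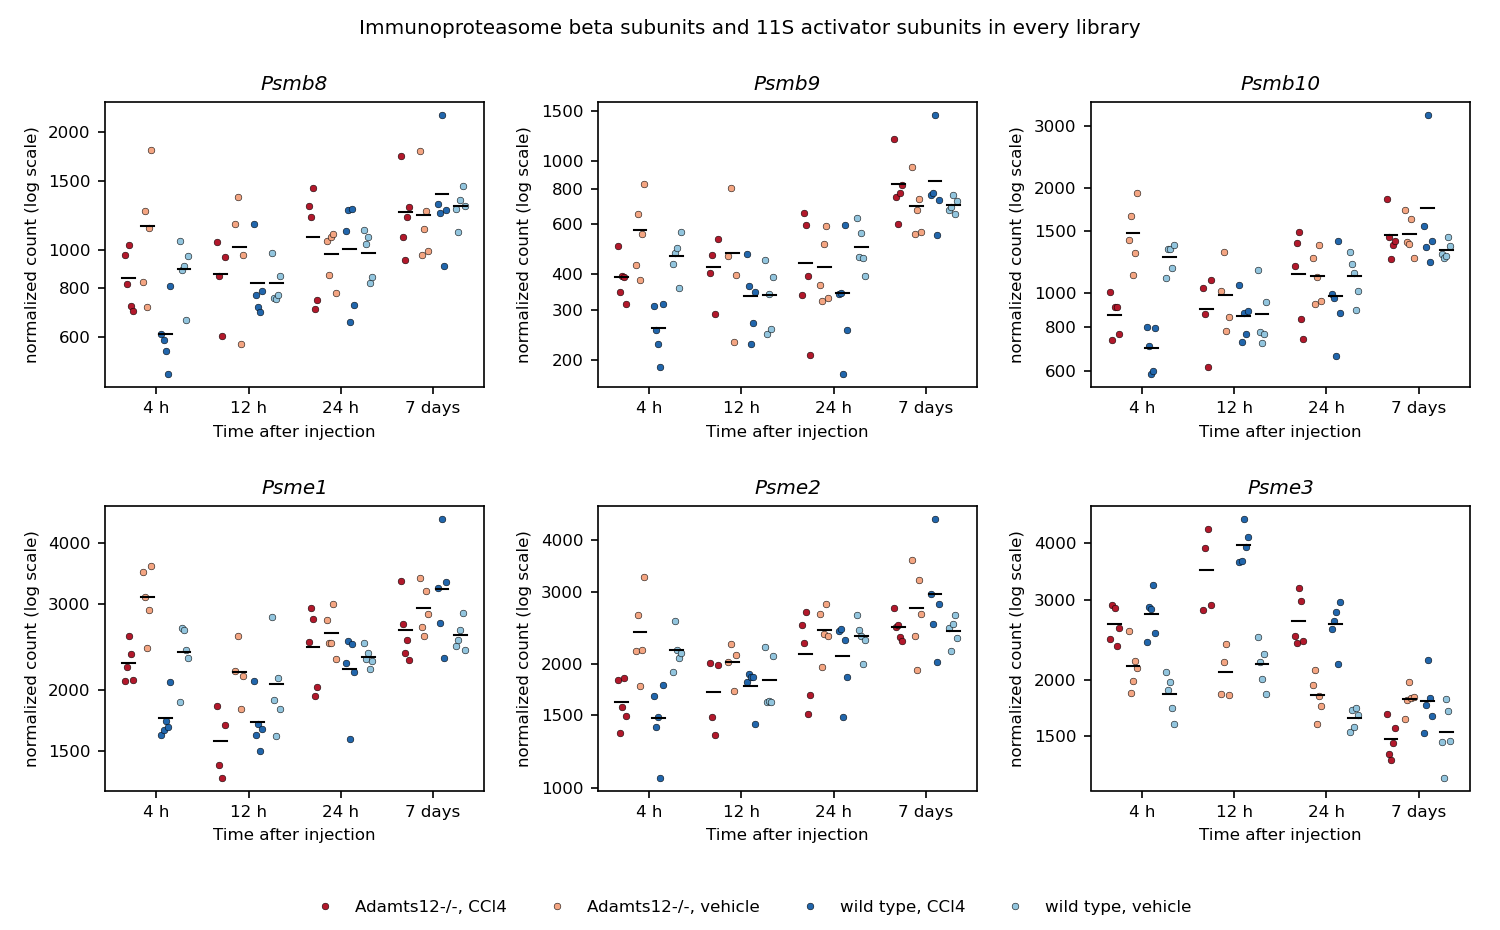
Normalized counts (log axes) of the immunoproteasome beta genes and of Psme1, Psme2 and Psme3 in every library at each time, with knockout CCl4, knockout vehicle, wild-type CCl4 and wild-type vehicle from left to right; points are mice and bars are group means. At 4 h Psmb10 points of CCl4 lie below those of vehicle in both genotypes, and Psme3 points of CCl4 lie above at 12 h and 24 h.

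The ratio of an inducible subunit to its constitutive counterpart within a library does not depend on the size factor. Since the genes differ in length, only its change between groups is read. At 4 h the log2 ratio of Psmb10 to Psmb7 was -2.32 ± 0.15 in knockout CCl4 livers and -1.38 ± 0.22 in knockout vehicle livers, a difference of -0.94. It was -2.83 ± 0.32 in wild-type CCl4 livers and -1.40 ± 0.29 in wild-type vehicle livers, a difference of -1.43 (SD, n = 5 each). Both differences had p = 0.00794 in a two-sided exact permutation test, the smallest that 5 against 5 libraries allow, and 0.0476 after adjustment over 24 tests (3 ratios, 2 genotypes and 4 times). In wild type the ratio of Psmb8 to Psmb5 was -1.28 ± 0.21 with CCl4 and -0.28 ± 0.19 with vehicle (difference -1.0), and that of Psmb9 to Psmb6 was -4.11 ± 0.36 with CCl4 and -2.84 ± 0.49 with vehicle (difference -1.27), again with an adjusted exact p of 0.0476 each. All 3 wild-type calls were lost when any 1 CCl4 library was left out (adjusted exact p of 0.0635 to 0.0762) and kept when any 1 vehicle library was. The knockout call of Psmb10 to Psmb7 was kept in all 10 tests that left out 1 knockout library of 4 h. All calls at 4 h had the smallest p allowed, and its adjusted value depends on how many of the 24 tests reach it. The calls therefore depend on each other, and these tests do not compare how firm the calls of the 2 genotypes are. In the knockout the ratios of Psmb8 to Psmb5 and Psmb9 to Psmb6 differed by -0.48 and -0.56 at 4 h, with adjusted exact permutation p of 0.19 and 0.187. At later times no ratio passed: the largest difference was that of Psmb8 to Psmb5 at 12 h, -0.77 in the knockout (adjusted exact p = 0.187, where 4 against 4 libraries cannot go below an unadjusted p of 0.0286) and -0.88 in wild type (0.0762, and 0.0381 without CCl4 replicate 1).

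**Figure D4:**
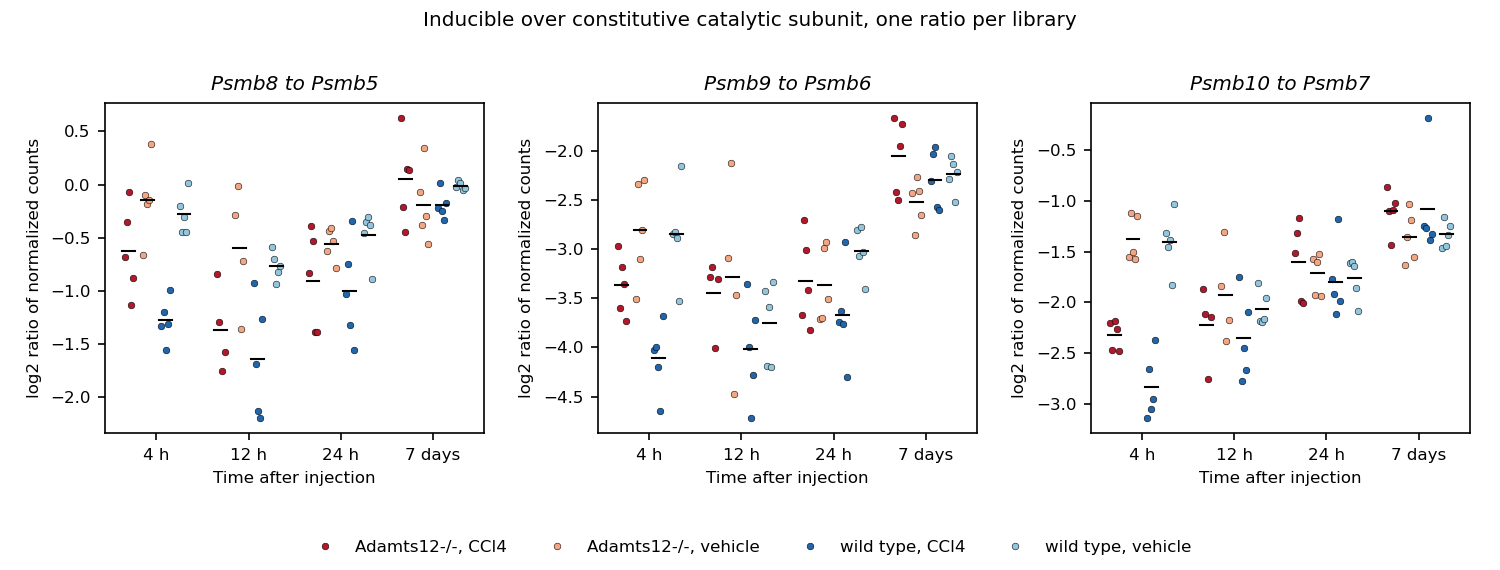
Log2 ratio of normalized counts of each inducible catalytic gene to its constitutive counterpart, 1 point per library, at each time with knockout CCl4, knockout vehicle, wild-type CCl4 and wild-type vehicle from left to right; bars are group means. At 4 h the CCl4 points of wild type lie below the vehicle points in all 3 panels, and in the knockout they do so for Psmb10 to Psmb7.

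The 4 activator genes split by kind. Psme1 and Psme2, the interferon-inducible pair on chromosome 14, fell at 4 h in both genotypes. Psme1 had 2082, 2227, 2579, 2374 and 2096 in knockout CCl4 livers and 3491, 3097, 2437, 2924 and 3597 in knockout vehicle livers (-0.44 ± 0.14, adjusted p = 0.00637). Wild-type livers had 1617, 1652, 1727, 1679.8 and 2078 with CCl4 and 1892, 2686, 2651, 2418 and 2325 with vehicle (-0.45 ± 0.14, adjusted p = 0.00517). Psme2 had 1832, 1360.4, 1572, 1845 and 1494 in knockout CCl4 livers and 2148, 2637, 1769.6, 2169 and 3266 in knockout vehicle livers (-0.54 ± 0.16, adjusted p = 0.00514). Wild-type livers had 1675, 1409, 1484, 1059 and 1782 with CCl4 and 1911, 2546, 2169, 2074 and 2124 with vehicle (-0.56 ± 0.16, adjusted p = 0.00313). The wild-type groups of Psme2 did not overlap, and the other 3 pairs of groups for Psme1 and Psme2 overlapped in part. At 12 h Psme1 was still called lower in the knockout (-0.48 ± 0.15, adjusted p = 0.007), and its wild-type change was -0.24 ± 0.14, adjusted p = 0.117. Emc9, which lies on the opposite strand of Psme1, was lower at 4 h by 0.88 ± 0.30 in the knockout and by 1.21 ± 0.30 in wild type on the log2 scale, with means of 272 in knockout CCl4 and 494.5 in knockout vehicle livers, and of 211 in wild-type CCl4 and 489 in wild-type vehicle livers. Its part in the Psme1 counts was not tested.

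Psme3 and Psme4 encode nuclear activators that act without ubiquitin. Psme3 had 2849, 3904, 4303 and 2924 in knockout CCl4 livers of 12 h and 1861, 2188, 2396 and 1850.2 in knockout vehicle livers (0.74 ± 0.12, adjusted p = 1.01e-06). Wild-type livers had 3627, 3663, 4522, 3929 and 4122 with CCl4 and 2478, 2185, 2002, 2275 and 1858 with vehicle (0.88 ± 0.11, adjusted p = 3.7e-10). It was also called higher at 4 h (0.31 in the knockout, lost without CCl4 replicate 2 or 3 or vehicle replicate 2 or 3 and with quantile normalization (0.14, adjusted p = 0.341), and 0.59 in wild type) and at 24 h (0.54 in the knockout and 0.68 in wild type). Psme4 had 6538, 6591, 6195, 4746 and 5322 in knockout CCl4 livers of 4 h and 3958, 3489, 3433, 3804 and 3221 in knockout vehicle livers (0.71 ± 0.13, adjusted p = 7.38e-06). Wild-type livers had 7619.6, 6924, 6383, 6662 and 5684 with CCl4 and 3358, 3783, 3453, 2936 and 3231 with vehicle (0.99 ± 0.13, adjusted p = 2.1e-09). At 4 h all Psme4 libraries of CCl4 lay above those of vehicle, and at 12 h the change was -0.22 ± 0.14, adjusted p = 0.22 in the knockout and -0.05 ± 0.13, adjusted p = 0.776 in wild type. The fall of its CCl4 effect between 4 h and 12 h was called in both genotypes, at -0.92 in the knockout and -1.03 in wild type. Of the 2 rows that are no subunits, Psme3ip1 had 972, 1322, 1510.1 and 1616 in knockout CCl4 livers of 12 h and 960.1, 851, 1036 and 901 in knockout vehicle livers (0.51 ± 0.14, adjusted p = 0.00176). Wild-type livers had 2093, 1543, 2356, 2013 and 1769.9 with CCl4 and 1047, 919, 799.6, 958 and 864 with vehicle (1.08 ± 0.12, adjusted p = 2.73e-11). The groups overlapped in the knockout and not in wild type. Psmc3ip, a meiotic recombination factor, was called higher at 24 h (2.02 ± 0.39, adjusted p = 2.18e-05 in the knockout and 1.43 ± 0.39, adjusted p = 0.00162 in wild type) at levels close to the floor, with 18.4 to 33.8 in knockout CCl4 livers and 2.2 to 11.7 in knockout vehicle livers. Without the wild-type mice numbered below 7000, which leaves only vehicle replicate 5 at 24 h, its wild-type change was 0.73.

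By 7 days few or no members were called. In wild type 0 of 44 rows were called and 13 had an unadjusted p under 0.05 (8 higher and 5 lower), against 0.0275% of all genes called in each direction and 16.9% with an unadjusted p under 0.05. In the knockout 1 row was called, Psmd14, lower at 1209, 985, 1302, 989 and 1004 with CCl4 and 1708, 1402, 1385, 1493 and 1686 with vehicle (-0.49 ± 0.12, adjusted p = 0.0311). Its groups did not overlap, but the call was lost without CCl4 replicate 2, 4 or 5 or vehicle replicate 1, 2 or 5 (adjusted p of 0.0554 to 0.15). In wild type Psmd14 had 1111, 1010.0, 923, 1249.7 and 1341 with CCl4 and 1375, 1088, 1592, 1613 and 1405 with vehicle (-0.33 ± 0.12, adjusted p = 0.136). At an unadjusted p under 0.05, 21 of 44 knockout rows were lower and 0 higher, against 12.6% of all genes in either direction. Over all genes 0.309% were called higher and 0.385% lower at 7 days in the knockout. Sums over the 31 core and cap genes were 68737 to 82024 (median 73104) in knockout CCl4 livers and 74256 to 108921 (median 89828) in knockout vehicle livers, 77745 to 99888 (median 84615) in wild-type CCl4 livers and 67537 to 87922 (median 81468) in wild-type vehicle livers. Both pairs of groups overlapped.

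The genotypes were compared directly. The difference of the CCl4 effect, knockout minus wild type, was called for 0 of 44 rows at each time with limma, where 0.00687% of all genes were called at 4 h and at 7 days and 0.0% at 12 h and 24 h. Counts at an unadjusted p under 0.05 were 8 of 44 at 4 h, 10 at 12 h, 0 at 24 h and 19 at 7 days, all with a lower effect in the knockout, against 4.68%, 2.82%, 4.77% and 11.3% of all genes. All 31 core and cap differences were below 0 at 4 h and at 12 h, with medians of -0.28 and -0.26, and 30 of 31 at 7 days, with a median of -0.34. The medians of all genes were 0.00, -0.01 and 0.03. At 24 h 19 of 31 were below 0, with a median of -0.04. Mice numbered below 7000 were all wild type, in groups of 12 h, 24 h and 7 days, so mouse number and genotype are partly mixed there. Among vehicle livers of 7 days, wild-type replicate 2 had the lowest value of its group in 31 of the 31 genes. Knockout replicate 1 had the highest of its group in 27. Among the members the smallest unadjusted p at 7 days belonged to Psme3, with a limma difference of -0.53 ± 0.16 (adjusted p = 0.306). The 31 genes were read in the same libraries and are not independent observations, and 0 calls do not show that the genotypes responded alike.

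**Figure D5:**
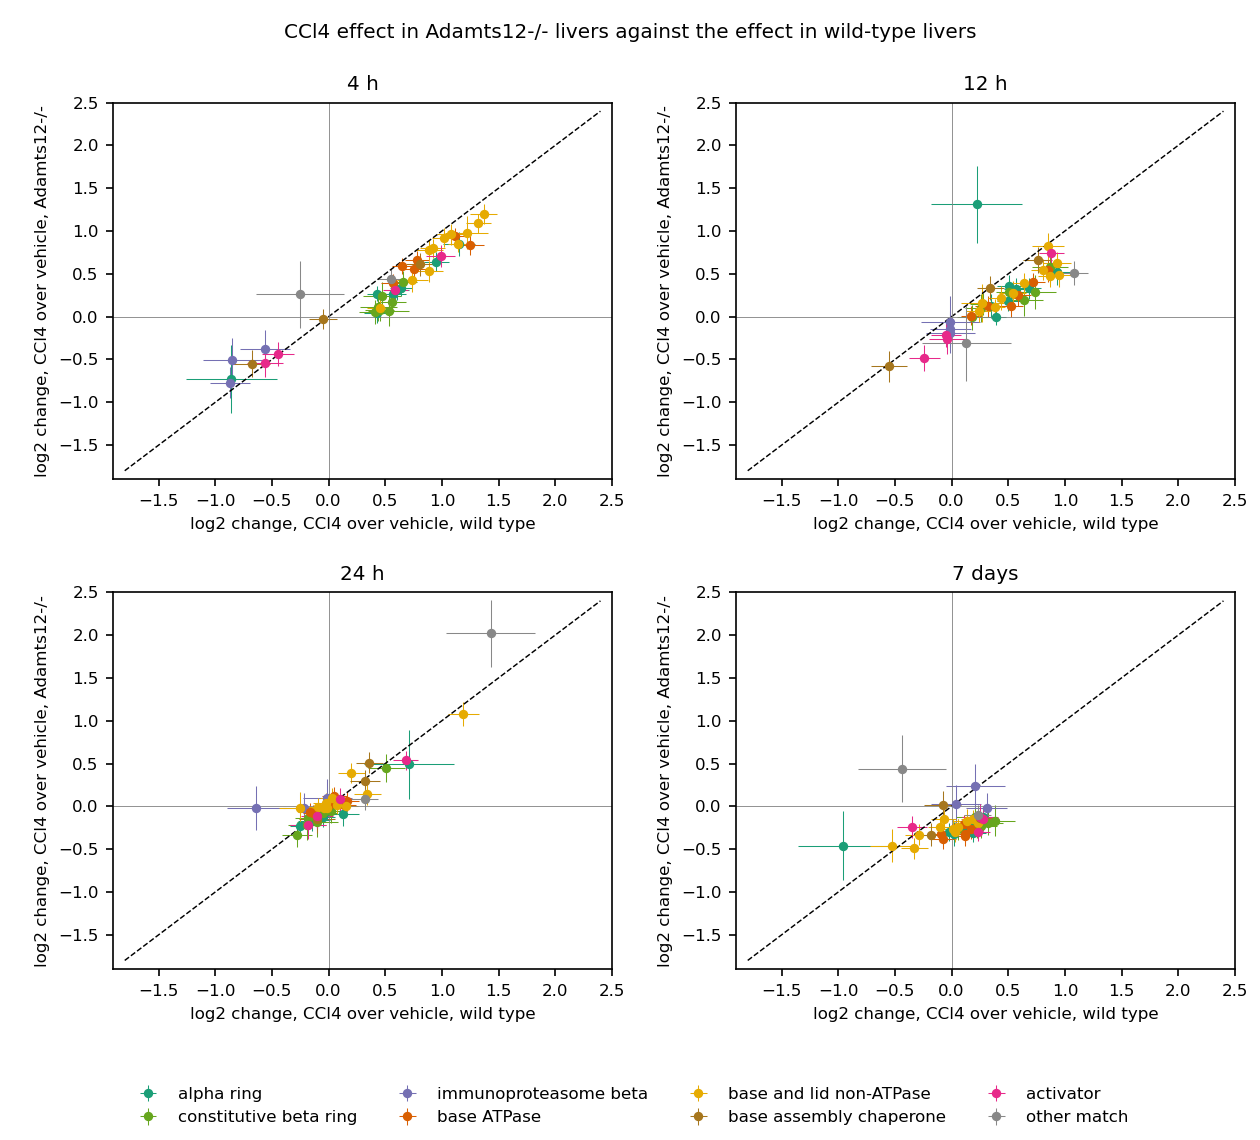
Log2 change of CCl4 over vehicle in knockout livers (vertical axis) against that in wild-type livers (horizontal axis), 1 panel per time, 1 point per row, coloured by role, with SE bars; the dashed line marks equal changes. At 4 h and 12 h the core and cap points lie below the line, by a median of 0.28 and 0.26, and no difference was called.

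Knockout and wild-type livers given the same treatment also did not differ by a called change in any of the 44 rows. In CCl4 livers 8 rows had an unadjusted p under 0.05 at 4 h (3 higher and 5 lower in the knockout), 8 at 12 h (all lower), 0 at 24 h and 13 at 7 days (all lower), and in vehicle livers 3, 2, 0 and 6. At an unadjusted p under 0.05 the shares over all genes were 8.81%, 9.49%, 6.78% and 7.22% in CCl4 livers. In vehicle livers these shares were 9.54%, 3.48%, 8.46% and 8.15%. Called shares over all genes in CCl4 livers were 0.584%, 0.0206%, 0.0137% and 0.0%, and in vehicle livers 0.343%, 0.0%, 0.0% and 0.055%. The row nearest to a call was Psme3ip1 in CCl4 livers of 12 h, at 1355 ± 283.1 in the knockout (SD, n = 4) and 1955 ± 311 in wild type (SD, n = 5), a difference of -0.54 ± 0.13 (adjusted p = 0.111 with limma). It was called without wild-type CCl4 replicate 2 or without knockout CCl4 replicate 4. Over all 8 conditions Psme1 (0.12 ± 0.05, unadjusted p = 0.0174) and Psmb9 (0.21 ± 0.09, unadjusted p = 0.0336) were the rows with an unadjusted p under 0.05, both higher in the knockout and neither called (adjusted p of 0.473 and 0.605). They were 4.55% of the 44 rows, against 7.47% of all genes at an unadjusted p under 0.05. Of all genes 0.591% were called.

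Vehicle livers also differed between times. Among vehicle mice the level differed between times for 10 of 44 rows in the knockout and 19 of 44 in wild type, against 41.7% and 38.9% of all genes. Without knockout vehicle replicate 4 of 12 h the knockout count was 6, and without wild-type vehicle replicate 5 of 4 h the wild-type count was 12. At 12 h, 6 of 31 core and cap genes were higher than at 4 h in knockout vehicle livers and 10 in wild-type vehicle livers, with median changes of 0.22 and 0.24, and 0 were lower, against 10% and 8.66% of all genes called higher. At 24 h it was 5 and 9, with medians of 0.15 and 0.23, against 11.9% and 9.05% of all genes. Psmc4, an ATPase of the base, was higher at 12 h than at 4 h by 0.60 in knockout and 0.64 in wild-type vehicle livers, both called, and Psmb10 was lower by 0.59 and 0.55. Core and cap sums of vehicle livers at 4 h had medians of 89056 in the knockout and 80819.5 in wild type, and at 12 h of 97817 and 90123. Hours after injection and time of day cannot be told apart, since the labels give no time of day.

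Other parts of the degradation pathway were read from lists of known genes. Of 15 ubiquitin and shuttling genes, 11 were called higher and 0 lower at 4 h in each genotype, with medians of 0.83 in the knockout and 0.89 in wild type. The shuttle receptor gene Sqstm1 averaged 113379 ± 6480 in knockout CCl4 livers and 12508 ± 2048 in knockout vehicle livers (log2 change 3.19 ± 0.22, adjusted p = 1.01e-19; SD, n = 5 each). It averaged 108004 ± 16073 and 10998 ± 886.3 in wild-type CCl4 and vehicle livers (3.29 ± 0.22, adjusted p = 2.55e-20; SD, n = 5 each). Nploc4 and Ufd1, cofactors of the segregase Vcp, rose by 1.23 and 1.12 in the knockout and 1.29 and 1.34 in wild type. Of 16 assembly and accessory factors 7 were called higher and 1 lower at 4 h in each genotype. Zfand2a, a stress-induced zinc finger gene whose product associates with the proteasome, averaged 9231 ± 1089.9 in knockout CCl4 livers and 387 ± 73.5 in knockout vehicle livers (4.59 ± 0.36, adjusted p = 2.21e-17; SD, n = 5 each). It averaged 9544 ± 3950 and 376 ± 55.3 in wild-type CCl4 and vehicle livers (4.57 ± 0.36, adjusted p = 2.12e-17). The ubiquitin receptor of the cap, Adrm1, rose by 1.05 in the knockout and 1.32 in wild type. Of the 5 core particle chaperones, at 4 h Psmg1 was called lower (-0.43 in the knockout and -0.46 in wild type) and Psmg2, Psmg3, Psmg4 and Pomp were not called. At 12 h Psmg2 and Psmg3 were called higher by 0.62 and 0.95 in the knockout and 0.93 and 1.20 in wild type. Psmg4 changed by 0.33 in the knockout (not called) and 0.92 in wild type (called), and Psmg1 and Pomp were not called in either.

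Of 10 genes that control proteasome genes, 4 were called higher at 4 h in each genotype (Hsf1, Nfe2l2, Ngly1 and Nfyb), and 1 lower in the knockout (Nfe2l1). The stress factor gene Nfe2l2 rose by 1.17 ± 0.14 in the knockout and 1.04 ± 0.14 in wild type, and the heat shock factor gene Hsf1 by 0.91 ± 0.15 and 0.82 ± 0.15. Nfe2l1, the factor best known for the recovery of proteasome genes after proteasome inhibition, is controlled mainly at the protein level. Its message averaged 4214 ± 376 in knockout CCl4 livers and 5101 ± 686 in knockout vehicle livers (-0.27 ± 0.10, adjusted p = 0.0219). It averaged 4158 ± 513 and 4644 ± 346 in wild-type CCl4 and vehicle livers (-0.17 ± 0.10, adjusted p = 0.169; SD, n = 5 each). Of 15 class I presentation genes, 4 were called higher and 3 lower at 4 h in the knockout, and 4 higher and 2 lower in wild type. The higher ones were the endoplasmic reticulum chaperone genes Canx, Calr and Pdia3 and the interferon gamma receptor gene Ifngr1, and the lower ones Erap1, Irf1 and Tapbp in the knockout and B2m and Tapbp in wild type. Of 16 autophagy genes, 4 were called higher and 6 lower in the knockout and 5 higher and 5 lower in wild type, with Map1lc3b at -0.59 and -0.67. These shares stand beside 21.1% higher and 17.7% lower of all genes in the knockout and 23.1% and 20.5% in wild type.

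Most calls of liver cell type markers were made after 4 h. Of 8 hepatocyte markers 1 was called higher (Apob) and 2 lower (Serpina1a and Ttr) at 4 h in each genotype, and 7 lower at 12 h in the knockout and 8 in wild type. Their 4 h sums were 4850186 to 5102745 (median 5001206) in knockout CCl4 livers and 5007392 to 6431687 (median 5872855) in knockout vehicle livers, 4207697 to 5962714 (median 4751041) in wild-type CCl4 livers and 5629636 to 5878378 (median 5776769) in wild-type vehicle livers. Of 7 monocyte and macrophage markers 1 was called higher at 4 h, Cd14, by 4.05 in the knockout and 4.82 in wild type, and 6 were called higher at 24 h in the knockout and 5 in wild type, with 1 lower in wild type. At 24 h 6 of 8 leukocyte markers were called higher in the knockout and 3 in wild type, and 2 of 4 neutrophil markers in each. Over all genes 21.1% were called higher at 24 h in the knockout and 26.2% in wild type. Of 10 T, B and NK cell markers 1 differed in the joint test of the 8 comparisons, against 81.7% of all genes. Of 6 Kupffer cell markers 3 were called lower at 12 h in the knockout and 4 in wild type, of 5 sinusoidal endothelium markers 3 and 5, and of 5 stellate cell markers 0 and 2. Over all genes 23.1% were called lower at 12 h in the knockout and 29.4% in wild type. At 4 h no Kupffer, endothelial, stellate or neutrophil marker was called in either genotype, which does not show that cell shares were unchanged. The part of changing cell shares in the proteasome values was not tested at any time.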

How the data were processed

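Per the labels' protocols, 500 ng of total RNA per liver went through a stranded TruSeq mRNA kit and a NovaSeq sequencer. The authors deposited 1 table of normalized counts (a signal per gene and library: whole read counts divided by a size factor per library). The submitters' processing notes name STAR, HTSeq, DESeq2 and GRCm38, and whether counting used strand is not given in the sources used here. Multiplied back, 100% of values were whole within 0.01. A planned count test was not run, and limma 3.58.1 with trend (R 4.3.3) was fitted to log2(value + 1) over 16 group means and 78 libraries. Fold changes are on that scale, which understates changes of low genes. Of 14560 genes, 14558 reached 10 normalized counts in at least 5 libraries. Benjamini-Hochberg adjustment ran over all tested genes per comparison, with calls at 0.05, and the steps were tested on simulated data. Each library is a labelled mouse, and p-values measure the spread between these mice. Ratios used exact permutation tests.

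The members and gene lists were chosen with earlier results of these data known. By rule, values per library were given for Psmb5 to Psmb10, Psme1 to Psme4, and the gene with the strongest evidence of a CCl4 effect in each remaining class. Psmd8 and Psmd9, also given per library, and the other named members were chosen after their values were seen. Replicate numbers did not pair the samples. No identical libraries were found, and 14550 of 14560 gene IDs matched GENCODE M21. Promoters came from RefSeq (GRCm38.p6). Intervals from counting cover counting error only.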

Additional observations from a re-analysis of the deposited data

Results flagged for a closer look

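Of 256 groups of 4 or 5 libraries examined for the members named by library, 19 held 1 library whose gap to the rest exceeded Dixon's critical value, and chance gives about 1 in 20. Wild-type CCl4 replicate 3 of 7 days gave 4 of these, with Psmb9 at 1454 where the others had 552 to 772, Psmb10 at 3222 (others 1228 to 1557), Psmb5 at 2615 (others 1145 to 1529) and Psme3ip1 at 1174 (others 674 to 698). Its mean correlation with its own group was 0.9566, where the others had 0.9739 to 0.9766. Without it the wild-type comparison of 7 days still had 0 of 44 rows called.

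Among the immunoproteasome and activator genes, Psmb8 stood at 1164 in wild-type CCl4 replicate 1 of 12 h (others 698 to 786), Psme1 at 2078 in wild-type CCl4 replicate 5 of 4 h (others 1617 to 1727) and Psme2 at 1432 in wild-type CCl4 replicate 5 of 12 h (others 1811 to 1888). Psme4 stood at 4543 in knockout vehicle replicate 5 of 12 h (others 4059 to 4082) and at 4924 in knockout vehicle replicate 5 of 24 h (others 3531 to 3818). Among core genes, Psmb5 stood at 812 in knockout vehicle replicate 3 of 4 h (others 1259 to 1382), and Psmb7 at 7039 in wild-type CCl4 replicate 1 of 4 h (others 4125 to 4883) and at 2966 in knockout CCl4 replicate 5 of 24 h (others 3359 to 3482). Psma5 stood at 1402 in wild-type CCl4 replicate 4 of 24 h (others 2123 to 2399.8) and at 1347 in wild-type vehicle replicate 2 of 7 days (others 1729 to 1793). Psmb2 stood at 4314 in wild-type CCl4 replicate 3 of 12 h (others 3133 to 3426) and at 2533 in knockout vehicle replicate 1 of 7 days (others 1965 to 2105). Psme3ip1 stood at 1341 in knockout CCl4 replicate 2 of 4 h (others 1064 to 1137), at 1038 in knockout CCl4 replicate 3 of 24 h (others 673 to 764) and at 820.2 in knockout vehicle replicate 2 of 7 days (others 683 to 718).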

How the results depend on the processing

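The alternatives were a pseudocount of 8, no filter, a mean of at least 100, quantile normalization, trimmed-mean factors, all 80 libraries, the replicate block, wild-type mice numbered from 7000 up, only the libraries of one time, and each library left out. The planned edgeR and DESeq2 fits were not run, and all fits used the deposited values, which are counts already divided by size factors. Of the counts of members and the ratios, 381 stayed on their side of the threshold or within 1.5 times under these settings other than single libraries, 18 were weaker and 5 stronger. Counts below are of all 44 rows, with the reported count in brackets.

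Quantile normalization gave 15 higher (6) and 0 lower (2) in the knockout at 24 h, 1 lower (2) at 24 h and 2 lower (1) at 12 h in wild type, and changed effects in the knockout of 6 (11) between 4 h and 12 h, 1 (2) between 12 h and 24 h and 18 (8) between 24 h and 7 days. It turned the sign of Psmd3 (knockout, 0.26) and of Psmd2 (wild type, 0.32), both at 24 h. With all 80 libraries the knockout had 4 higher (18) and 0 lower (2) at 12 h and 0 lower (1) at 7 days, 1 effect (2) changed between 12 h and 24 h, and 1 row (0) differed between genotypes in CCl4 livers of 12 h. Without the wild-type mice numbered below 7000, 2 were higher (8) and 0 lower (2) in wild type at 24 h, 14 effects (22) changed between 12 h and 24 h and 0 (10) between 24 h and 7 days in wild type, 1 (2) between 12 h and 24 h in the knockout, 10 rows (19) differed between times in wild-type vehicle livers, and 1 (0) between genotypes in CCl4 livers of 12 h. With only the libraries of that time, 1 row was lower (2) at 24 h in each genotype and 0 (1) at 7 days in the knockout, and a mean of at least 100 left 1 changed effect (2) in the knockout between 12 h and 24 h. The replicate numbers did not pair the samples: same-numbered libraries of different groups had a mean correlation of deviations of 0, and 8 of 38 pairs exceeded 0.1. With the replicate block 17 rows (18) were higher in the knockout at 12 h, and 35 higher and 6 lower in wild type at 4 h, as reported, and no count moved by over 1.5 times.

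Leaving out 1 library gave 23 to 26 higher (knockout) and 33 to 35 (wild type) at 4 h, and 13 to 19 (knockout) and 28 to 32 (wild type) at 12 h. At 24 h the knockout had 0 to 2 lower (0 without CCl4 replicate 1 or 5 or vehicle replicate 1), and wild type 5 to 8 higher (5 without CCl4 replicate 5) and 0 to 2 lower (0 without CCl4 replicate 5). At 12 h wild type had 1 to 2 lower (2 without vehicle replicate 3). At 7 days the knockout had 0 to 4 lower (4 without vehicle replicate 3, 3 without CCl4 replicate 1 or 3, 0 without CCl4 replicate 2, 4 or 5 or vehicle replicate 1, 2 or 5), and wild type 0 to 1 higher and 0 to 2 lower (calls appeared without CCl4 replicate 4). Effects that changed between 12 h and 24 h ranged from 1 to 10 (knockout; 10 without CCl4 replicate 1 of 12 h) and 15 to 26 (wild type), and between 24 h and 7 days from 5 to 12 in the knockout (5 without vehicle replicate 1 of 7 days) and 6 to 15 in wild type (6 without CCl4 replicate 3 of 7 days). Rows that differed between vehicle times ranged from 6 to 13 (knockout) and 12 to 24 (wild type), and rows that differed between genotypes in CCl4 livers of 12 h from 0 to 1. The wild-type ratio differences at 4 h ranged from -1.07 to -0.92 for Psmb8 to Psmb5, -1.44 to -1.09 for Psmb9 to Psmb6 and -1.55 to -1.34 for Psmb10 to Psmb7. They passed without any 1 vehicle library and did not without any 1 CCl4 library (adjusted exact p of 0.0635 to 0.0762). Since the ratio tests were adjusted together, these losses were not independent of each other. Psmb8 to Psmb5 ranged from -1.06 to -0.74 at 12 h and from -0.23 to -0.15 at 7 days in wild type. Depth did not limit the core and cap genes, whose group means were at least 1086.0 normalized counts, but Psma8 and Psmc3ip lay near the floor. The cause of these changes was not tested.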
